A study of Saccharomyces cerevisiae with 28 samples.

Results

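PRY2, ALP1 and GMH1 are yeast genes that the study carried from its activation screens into single-gene overexpression, and each was followed here through the CRISPR guide paired with it in the study's hit lists. The PRY2 guide came from the list of the early activation screen, and the ALP1 and GMH1 guides came from the list of the main activation screens. In all, 3 guides met this rule, 1 per gene, out of 40890 guides counted, of which 2278 are paired with a gene or transcript in those lists. Hits of these same libraries led the study to the 3 genes, so a high value in the screen that named a gene is a description and not independent evidence. The overexpression assays are not analysed here.

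The cells were the industrial diploid Saccharomyces cerevisiae strain Ethanol red with a codon-optimised fungal α-amylase, AnAmy6, integrated at the HO locus, and all groups share this background. Activation cells carried a plasmid with dCas9-VPR, a nuclease-null Cas9 fused to a transcriptional activator, and repression cells carried dCas9-Mxi1, a fusion to a repressor, in both cases from the constitutive TEF1 promoter under geneticin selection. Guide RNA expression was switched on by 500 ng/µl anhydrotetracycline when single cells were enclosed in droplets with a fluorescent amylase substrate, and the brightest droplets were sorted as the high fluorescence fraction, with the low fluorescence fraction as its counterpart. The 28 libraries hold 2 high and 2 low fractions of the early activation screen, 8 high and 8 low fractions of the main activation screens from 4 rounds of 2 replicates, and 4 high and 4 low fractions of the main repression screens from 2 rounds of 2 replicates. Sorted cells were grown on plates before their plasmids were extracted and the 20-base guide region was amplified and counted, so a count measures the plasmids in the regrown cells and not the mRNA of the target gene.

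PRY2 encodes a secreted glycoprotein of the CAP family, whose yeast members bind sterols and export acetylated sterols from the cell. ALP1 encodes a plasma membrane permease for basic amino acids, related to the arginine permease CAN1 and the lysine permease LYP1. GMH1 encodes a Golgi membrane protein that interacts with GEA1 and GEA2, exchange factors that activate the small GTPase Arf in vesicle formation. In a screen of this kind the high fraction is meant to gather guides whose cells secrete more amylase.

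The guide sequences are printed because every value below is a count of 1 of them; capitals mark the 12 bases nearest the PAM, the seed that dominates target recognition by Cas9.
PRY2 guide: gcagaactAGAATGCGTGAG
ALP1 guide: gtatgtatGTTTTTGAGTCG
GMH1 guide: aagttaatGTCTACCTCTCT
The ALP1 and GMH1 guides had a GC content of 35.0%, and the PRY2 guide of 50.0%. The ALP1 guide holds a run of 5 T bases at positions 10 to 14 from its 5′ end, and 3.88% of all library guides had a T run as long. Runs of T are known to stop transcription by RNA polymerase III. The closest other library guide differed from the PRY2 and ALP1 guides at 6 positions each and from the GMH1 guide at 7 positions.

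All 3 genes matched the RefSeq annotation of assembly R64. There PRY2 (YKR013W) lies on the Watson strand at chrXI:463959-464948. The next gene upstream of its start, FPT1, runs the other way at a gap of 1262 bases. GMH1 (YKR030W) lies on the Watson strand of the same chromosome at chrXI:500282-501103. Upstream of it SET3 also runs the other way, at a gap of 448 bases. ALP1 (YNL270C) lies on the Crick strand at chrXIV:135940-137661, and only 37 bases separate its start from BSC4, which runs the other way. The library was designed against promoter regions, but the position of each guide within them was not analysed here.

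Library totals ran between 50433 and 3359719 reads over the 28 libraries, so 3 reads, the most that a count of 0 allows, corresponded to between 0.893 and 59.5 CPM (a guide's reads scaled to a library of 1000000 reads). In the main activation screens the high fractions held 205969 to 2382465 reads and the low fractions 50433 to 2464879 reads. Guides were unevenly spread over replicate libraries: of 3075 guides with at least 100 reads in the high fractions of the main activation screens, 83.9% had over 90% of these reads in a single library, against 35.5% of 10425 guides in the low fractions. No pair of replicate libraries held identical counts. Counting intervals and floors cover counting error only, since amplified reads carry no molecular identifiers and may repeat a molecule, and the labels do not say whether replicates came from separate cultures, so p-values measure the spread between these libraries.

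Of the 3 guides, PRY2 was by far the most abundant, with 69502 reads in 21 libraries and rank 20 among all guides by total reads. The ALP1 guide had 13145 reads in 11 libraries (rank 480), and the GMH1 guide had 8836 reads in 11 libraries (rank 966). For each of the 3 genes a single library held nearly all reads, but it was a low fraction library for PRY2 and a high fraction library for ALP1 and GMH1.

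In the early activation screen the PRY2 guide was abundant in both high fractions and nearly lacking in both low fractions. It had 1746 and 324 reads in the high fraction libraries, against 2 and 0 reads in the low fraction libraries. The corresponding means were 607 ± 455 CPM in the high fractions and 0.531 ± 0.751 CPM in the low fractions (SD, n = 2 each). The ratio of summed shares, high over low, was 924 with an exact 95% counting interval of 255 to 7631.

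The fit across all guides placed PRY2 among the strongest guides of the early screen. Its log2 fold change, high over low, was 14.44 ± 5.73 (SE), rank 10 of 3215 guides tested, with an adjusted p of 0.0797 from edgeR's likelihood ratio test, which passes the threshold used for the early screen, a log2 fold change over 8 and FDR under 0.1. Of the guides tested, 1.21% were called higher in the high fraction by this threshold; because PRY2 was taken from this list, nothing is read from its own call. The fitted fold change depends on the prior count, being 12.36 with a prior count of 2, since the low fractions held only 2 reads. With edgeR's quasi-likelihood test the adjusted p was 0.353, and with a block for the sort it was 0.254 (log2 fold change 13.88, edgeR), and the call was lost with either. The exact two-sided permutation test on log2(CPM + 1) gave a difference of 8.49 with p = 0.333, the smallest p that 2 libraries against 2 allow.

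In the main activation screens, which did not serve to select PRY2, the guide went the other way. Across rounds 2 to 5, replicates 1 and 2 of each, it had 0 and 1, 49 and 70, 2 and 0, and 10 and 0 reads in the high fractions, against 57 and 76, 65440 and 63, 262 and 28, and 186 and 0 reads in the low fractions. The low fraction of round 3 replicate 1 stood alone, where the PRY2 guide was the most abundant of all guides with 18.4% of the reads (Wilson 95% interval 18.2% to 18.5%). The median was 2.56 CPM over the high fractions (range 0 to 61.4 CPM) and 127 CPM over the low fractions (range 0 to 183536 CPM), so the groups overlapped. Reads were found in 5 of 8 high fractions and in 7 of 8 low fractions.

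The all-guide fit gave PRY2 a log2 fold change, high over low, of -5.91 ± 1.78 (SE) in the main activation screens, with an adjusted p of 0.00269 by edgeR's likelihood ratio test. This was the lowest fold change among the 1166 guides that passed the abundance filter, of which 3.34% were called lower in the high fraction (log2 fold change under -3, FDR under 0.05) and 69.5% were called higher. This background moved with the scaling. After relative log expression (RLE) scaling the factors of the high fraction libraries were 0.0304 to 1.08 and those of the low fraction libraries 3.12 to 10.6, and the median log2 fold change of all tested guides was 4.68. With TMM scaling that median was 2.14, and with library size alone it was -0.60. PRY2 was also called lower in the high fraction under both, at -6.25 (adjusted p = 0.00523, edgeR) with TMM and -10.19 (adjusted p = 1.18e-04, edgeR) with library size alone. Of the 1166 guides, 112 were called lower with TMM and 276 with library size alone. The call was lost with a block for the sort that a high and a low library share (-3.07, adjusted p = 0.510, edgeR), with summed replicates (-4.19, adjusted p = 0.0923, edgeR) and without a filter (-6.11, adjusted p = 0.0684, edgeR), and DESeq2 gave 0.79 (adjusted p = 0.662).

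The size of the PRY2 decrease rested on the low fraction of round 3 replicate 1. Without round 3 replicate 1, the RLE-scaled log2 fold change was -0.02 (adjusted p = 0.989, edgeR), and without its low library alone it was 0.74 (adjusted p = 0.581, edgeR). On the scale of library size alone, the fit without round 3 replicate 1 gave -4.24 with an adjusted p of 0.0411 (edgeR). In that fit 381 of 1416 guides were called lower. The call thus depended on the scaling once this replicate was out. Without round 3 replicate 1 the means were 10.2 ± 22.7 CPM in the high fractions and 288 ± 542 CPM in the low fractions (SD, n = 7 each). The highest low fraction left was round 2 replicate 2 at 1507 CPM, which was 76 reads in a library of 50433. The exact two-sided permutation test on log2(CPM + 1) gave a difference of -5.27 (p = 0.0146, 8 libraries against 8) with round 3 replicate 1 and of -4.36 (p = 0.0175, 7 against 7) without it. With the libraries paired by sort, the exact permutation test over all 8 sorts gave p = 0.0312. The unpaired test was 1 of 7 run over the 3 guides, and the p-values are unadjusted. CPM is scaled by library size alone, and on that scale many guides were lower in the high fractions. With all 8 sorts edgeR called 276 of 1166 guides lower on it with the filter, and 6896 of 20411 without. How many guides would pass the permutation test was not computed, so no decrease particular to PRY2 is read from it.

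The smaller PRY2 counts of rounds 2 and 3 were set against that one library. Relative to its 65440 reads, the counts stood at 0.0749% and 0.107% in the high fractions of round 3, at 0.0963% in the low fraction of round 3 replicate 2, and at 0.0871% and 0.116% in the low fractions of round 2, but at 0% and 0.0015% in the high fractions of round 2. Only 17 guides, PRY2 among them, had at least 500 reads in that low library. Their median ratios were 0.663% in each high fraction of round 3 and 25.9% in the low fraction of round 3 replicate 2. The 10th percentiles were 0.0813% and 0.0950% in the high fractions of round 3 and 0.115% in that low fraction. PRY2 thus lay near the low end of these guides. As the most abundant guide of that library it had the largest divisor, which favours a low ratio, so nothing is read from this position. Whether reads passed between these libraries was not tested.

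The repression libraries gave no call for PRY2. The guide had 866, 14, 0 and 0 reads in the high fractions of rounds 1 and 2, against 107, 37, 56 and 106 reads in the low fractions. The means were 65.8 ± 129 CPM in the high fractions and 30.3 ± 10.6 CPM in the low fractions (SD, n = 4 each). All 4 low fractions held the guide at a similar level, whereas a single high library, round 1 replicate 1, held 98.4% of the high fraction reads.

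The log2 fold change of PRY2 under repression was 1.40 ± 1.73 (SE) with an adjusted p of 0.808 by edgeR (-2.49 and 0.599 with a block for the sort), in a fit where 5.37% of 13403 guides were called higher and 13.5% lower in the high fraction. Without the high library of round 1 replicate 1 the sign turned, to -3.45 (adjusted p = 0.0738, edgeR). Without round 1 as a whole it was -8.80 (adjusted p = 0.00300, edgeR), past the threshold, in a fit where 5153 of 13932 guides were called lower. The exact two-sided permutation test gave a difference of -2.27 in mean log2(CPM + 1) with p = 0.286, where the smallest p possible was 0.0286.

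The PRY2 effect was also compared between screens by an interaction term. Main minus early activation gave a difference of -20.59 ± 6.94 (SE) in log2 fold change, with an unadjusted p of 0.00302 and an adjusted p of 0.255 (edgeR). No guide of the 11411 tested passed FDR under 0.05 in this contrast by edgeR's likelihood ratio test or its quasi-likelihood test, although 1727 and 1661 guides had an unadjusted p under 0.05. Activation minus repression gave -7.19 ± 3.26 (SE) with an adjusted p of 0.194 (edgeR), and -1.38 (adjusted p = 0.881, edgeR) without round 3 replicate 1 of the activation screens. The opposite directions of PRY2 in the early and main activation screens were therefore not separated by a test that corrects over all guides.

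The ALP1 guide was a guide of 1 library. In the main activation screens it had 145 and 0, 0 and 0, 12927 and 2, and 5 and 20 reads in the high fractions of rounds 2 to 5, against 0 and 0, 0 and 0, 5 and 5, and 13 and 0 reads in the low fractions. The high fraction of round 4 replicate 1 held 98.7% of its high fraction reads, and there it took 0.591% of the library (Wilson 95% interval 0.581% to 0.601%), rank 18 of all guides. The medians were 1.60 CPM over the high fractions (range 0 to 5911 CPM) and 0 CPM over the low fractions (range 0 to 5.97 CPM).

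The GMH1 guide followed the same course at a lower level. Its reads were 100 and 0, 0 and 0, 8624 and 4, and 3 and 11 in the high fractions of rounds 2 to 5, against 0 and 0, 0 and 0, 5 and 1, and 7 and 2 in the low fractions. Again the high fraction of round 4 replicate 1 stood apart, with 98.7% of the high fraction reads, 0.394% of the library (Wilson 95% interval 0.386% to 0.403%) and rank 56. The medians were 1.74 CPM over the high fractions (range 0 to 3943 CPM) and 0.597 CPM over the low fractions (range 0 to 3.42 CPM), so for both guides the fractions overlapped.

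Neither guide passed the abundance filter of the main activation fit, so their fold changes were read from the fit without a filter. There the log2 fold change, high over low, was 14.70 ± 3.14 (SE) for ALP1 and 14.69 ± 3.14 (SE) for GMH1, ranks 28 and 29 of 20411 guides, each with an adjusted p of 8.25e-04 by edgeR's likelihood ratio test. In this fit 8.08% of guides were called higher in the high fraction, and the median log2 fold change of all guides was -1.06. Both calls describe guides that the study chose from these libraries. Scaled by library size alone, the values were 8.45 for ALP1 and 8.44 for GMH1, each with an adjusted p of 0.00785 (edgeR). With a block for the sort they were 8.28 for ALP1 (adjusted p = 0.0783, edgeR) and 7.68 for GMH1 (adjusted p = 0.0715, edgeR), and neither call held.

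The mean level over replicate libraries was no larger than its spread for either gene. ALP1 averaged 759 ± 2082 CPM in the high fractions and 1.83 ± 2.63 CPM in the low fractions, and GMH1 averaged 507 ± 1389 CPM in the high fractions and 1.16 ± 1.40 CPM in the low fractions (SD, n = 8 each). The exact two-sided permutation test on log2(CPM + 1) gave a difference of 2.28 (p = 0.216) for ALP1 and of 2.18 (p = 0.206) for GMH1, where 8 libraries against 8 allow a p as small as 1.55e-04.

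The second largest counts of ALP1 and GMH1, in the high fraction of round 2 replicate 1, followed the counts of round 4 replicate 1 in a ratio common to other guides. Of 495 guides with at least 500 reads in the high fraction of round 4 replicate 1, all 495 also had reads in the high fraction of round 2 replicate 1, at a median of 1.12% of their round 4 count (10th to 90th percentile 0.787% to 1.69%). ALP1 stood at 1.12% and GMH1 at 1.16%. In the high fraction of round 2 replicate 2, 50.5% of these guides had reads, and ALP1 and GMH1 had none. In the high fraction of round 5 replicate 2 the share of guides with reads was 97.4% at a median ratio of 0.160%, with ALP1 at 0.155% and GMH1 at 0.128%. The origin of the fixed ratio was not tested, and the counts of round 2 replicate 1 were not treated as a second sighting of either guide.

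Without round 4 replicate 1 the log2 fold changes were 8.36 (adjusted p = 0.0120) for ALP1 and 8.59 (adjusted p = 0.00734) for GMH1, by edgeR. Without both round 2 replicate 1 and round 4 replicate 1 they were 5.75 (adjusted p = 0.123) for ALP1 and 5.99 (adjusted p = 0.152) for GMH1, and neither passed the threshold. In the 6 sorts that remained, ALP1 had 27 reads in the high fractions and 18 reads in the low fractions, and GMH1 had 18 reads in the high fractions and 10 reads in the low fractions. Their means there were 2.12 ± 3.72 CPM in the high fractions and 1.87 ± 2.91 CPM in the low fractions for ALP1. For GMH1 the means were 1.45 ± 2.06 CPM in the high fractions and 0.974 ± 1.19 CPM in the low fractions (SD, n = 6 each). These differences were smaller than the spread between libraries (exact permutation p = 0.924 for ALP1 and 0.794 for GMH1, two-sided).

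Under repression both guides were rare. ALP1 had 0, 17, 0 and 0 reads in the high fractions of rounds 1 and 2, against 0, 0, 5 and 1 reads in the low fractions. GMH1 had 0, 11, 0 and 0 reads in the high fractions, against 0, 0, 0 and 68 reads in the low fractions. The only high library that held either of them was round 1 replicate 2, which held both.

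No change was detectable for ALP1 or GMH1 in the repression screens at this depth. In the fit without a filter the log2 fold change was 1.11 ± 2.50 (SE) for ALP1 (adjusted p = 0.816, edgeR) and -2.20 ± 2.76 (SE) for GMH1 (adjusted p = 0.626, edgeR), and with a block for the sort GMH1 stood at 0.51 (adjusted p = 0.885, edgeR). The exact permutation p was 1.0 for both. For GMH1 the sign rested on the 68 reads of the low fraction of round 2 replicate 2, since without that replicate it was 4.77 (adjusted p = 0.262, edgeR). For ALP1 the sign rested on round 1 replicate 2, without which it was -4.29 (adjusted p = 0.279, edgeR).

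In the early activation screen neither ALP1 nor GMH1 had a read in any of the 4 libraries. A count of 0 allows up to 3 reads, which is 1.60 to 2.64 CPM in the high fractions and 1.59 to 3.70 CPM in the low fractions. Hence no fold change could be given for these 2 guides in the screen where PRY2 stood out.

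The effects of ALP1 and GMH1 were compared between activation and repression libraries by an interaction term over the 24 main libraries. The difference, activation minus repression, was 14.24 ± 4.22 (SE) in log2 fold change for ALP1, with an adjusted p of 0.0306 (edgeR, 14666 guides tested). The activation arm holds the libraries from which the study chose both guides, so the differences are descriptions and no independent evidence. In this contrast 3.96% of guides had a positive difference past FDR under 0.05. GMH1 did not pass the filter, and in the fit without a filter its difference was 17.44 ± 4.14 (SE) with an adjusted p of 0.00585 (edgeR), where 3.50% of 24883 guides were called. Without the activation sorts of round 2 replicate 1 and round 4 replicate 1 the differences in the fit without a filter were 5.20 (adjusted p = 0.502, edgeR) for ALP1 and 8.77 (adjusted p = 0.137, edgeR) for GMH1.

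ALP1 and GMH1 had nearly the same pattern over libraries, and PRY2 had a different one. Both were seen in 10 of 28 libraries, ALP1 alone in 1, GMH1 alone in 1 and neither in 16. Over the 28 libraries the Pearson correlation of log2(CPM + 1) between ALP1 and GMH1 was 0.924 (Spearman 0.864), while PRY2 correlated at -0.301 with ALP1 and at -0.312 with GMH1. In the 4 high fractions with at least 11 reads of each guide, the count ratio of ALP1 over GMH1 was 1.50 in the high fraction of round 4 replicate 1, 1.45 in that of round 2 replicate 1, 1.82 in that of round 5 replicate 2 and 1.55 in the high repression fraction of round 1 replicate 2. The low repression fraction of round 2 replicate 2 departed from this, with 1 read of ALP1 and 68 reads of GMH1. In the main activation libraries with fewer reads of the pair the ratio ran from 0 to 5.0. As in rounds 2 and 5, the high repression counts were a small share of those of round 4 replicate 1. They stood at 0.132% for ALP1 and 0.128% for GMH1, so the 4 ratios were not treated as separate sightings. The correlation is a description over libraries of which 16 are zeros for both guides and 1 is deep for both.

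Among 19900 guides with at least 100 reads, those most like each member were mostly guides of the same deep library. For PRY2 the nearest was a guide paired with EMW1 (r = 0.816), which had 18700 of its 24100 reads in the low fraction of round 3 replicate 1, followed by 2 guides with no paired feature (r = 0.705 and 0.701). For ALP1 the nearest were a guide with no paired feature (r = 0.987), a guide paired with the unannotated transcript SUT643 (r = 0.983) and another unpaired guide (r = 0.982). For GMH1 they were 2 of the same unpaired guides (r = 0.934 each) and a guide paired with YGL165C (r = 0.931). All of the ALP1 and GMH1 neighbours had their highest count in the high fraction of round 4 replicate 1, and 24 guides correlated with ALP1 above 0.9, against 19 with GMH1 and 0 with PRY2.

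Genes of the same families as the 3 members were looked up in the hit lists, which hold guides of 1987 genes or transcripts. The counts were not compared with the share over all genes, so nothing about the families is read from them. Of the CAP family, 0 of 2 other genes (PRY1 and PRY3) had a paired guide, and of 2 sterol acetylation genes 1 had one, ATF2, an alcohol acetyltransferase that also acetylates sterols. Of 17 other amino acid permeases 4 had a paired guide, and of 12 genes around Arf activation and inactivation 2 had one. A set of 5 of the other genes that the study overexpressed (BNA7, ENO2, NMA2, SUT074 and TOM22) had 8 guides. TFG2, which the study also overexpressed, was not in this set.

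The permease, Arf and sterol guides were paired through the study's hit lists of these same libraries. Their calls and medians are therefore descriptions and no independent evidence. In the early screen, 2 of the 4 permease guides were called lower in the high fraction at the early threshold, where 21.2% of all tested guides were, a share that fell to 0 guides with a block for the sort or without a filter. These were AGP1, a broad-range amino acid permease, at -9.24 and BAP3, a branched-chain amino acid permease, at -11.14 (adjusted p = 0.0797 each, edgeR). The median log2 fold change of the 4, of which PUT4 was read from the fit without a filter, was -8.58, against 0.11 over all tested guides and -3.79 over all guides fitted without a filter. None of the 4 was called in the main activation or repression screens, where their median log2 fold changes were -4.61, against -1.06 over all guides fitted without a filter, and -0.24, against 0.0055 over all tested guides. Of the Arf genes, YEL1, an exchange factor for Arf3, was called higher in the early screen at 13.32, and AGE1, an Arf GTPase-activating protein, was called lower at -9.14 (adjusted p = 0.0797 each, edgeR). Neither was called in the main screens, and ATF2 was called in no screen, with 7.19 in the early screen (adjusted p = 0.249, edgeR) and 6.33 under repression (adjusted p = 0.0754, edgeR).

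Of the 8 guides of these 5 overexpressed genes, 6 were fitted in the early screen, and 2 of those were called higher. Of all 8, 4 were called higher and 1 lower in the main activation screens, and 1 higher under repression. Of all tested guides 1.21% were called higher in the early screen and 5.37% under repression. In the main activation screens 1 of the 4 higher calls, BNA7, came from the fit with the filter, where 69.5% were called higher and 3.34% lower, and the other 3 came from the fit without a filter, where 8.08% were called higher. BNA7, which encodes kynurenine formamidase of NAD synthesis, was the gene of this set called in both activation screens, at 14.80 in the early screen (adjusted p = 0.0797, edgeR) and 3.88 in the main screens (adjusted p = 0.0324, edgeR). The second value lay below the median of all tested guides, 4.68, on the same RLE scale. Unscaled by RLE factors, BNA7 averaged 29804 ± 51028 CPM in the high fractions and 44657 ± 67299 CPM in the low fractions of the main activation screens (SD, n = 8 each), and it was higher in the low fraction in 7 of 8 sorts. TOM22, a receptor of the mitochondrial import complex, had guides that differed in direction, at 15.18 (adjusted p = 6.96e-04, edgeR without a filter) and at -3.35 (adjusted p = 0.00561, edgeR) in the main activation screens. Like ALP1 and GMH1, the 3 guides called higher without a filter had most of their high fraction reads in 1 library. That library held 98.7% for the ENO2 guide, 99.6% for the SUT074 guide and 91.2% for the TOM22 guide at 15.18. As for the members, the study chose these genes from these libraries, so their calls are no independent evidence.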

How the data were processed

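Members and gene lists were chosen with earlier results of these data known. The authors demultiplexed the amplicon reads with Je, aligned them with BWA against padded guide sequences and summarised them in R; per the labels the build was sacCer3, and versions are not given in the sources used here. The deposited values are raw read counts per guide, used as deposited in all 28 libraries. Pairings of guides with genes and the guide sequences came from the study's hit lists; its fold changes and p-values were not used.

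Each guide's high over low ratio was fitted with edgeR 4.0.16 (R 4.3.3) after the study's methods: abundance filter (filterByExpr), RLE factors, glmFit and glmLRT, with all rounds and replicates of a fraction as replicates and Benjamini-Hochberg adjustment over all tested guides. The SE was derived from the fold change and its likelihood ratio statistic, as their quotient after taking the root of the statistic. Guides were called at a log2 fold change beyond 3 and FDR under 0.05, or beyond 8 and FDR under 0.1 in the early screen. Members that did not pass the filter were read from a fit of all guides with at least 1 read. Interaction terms compared screens. Exact permutation tests (scipy 1.17.1) used log2(CPM + 1), with a pseudocount of 1. Alternatives were quasi-likelihood and DESeq2 1.42.0 tests, TMM or library size scaling, other filters, a prior count of 2, a replicate block, summed replicates and left-out rounds or replicates. Same-numbered high and low libraries were taken as pairs, since both fractions come from 1 sort by the study's methods. Their deviations correlated over 0.1 in only 1 of 8 pairs of the main activation and 0 of 4 of the repression screens. In the early screen, centring on 2 replicates makes both pairs give the same correlation, which was -0.045. The test was also run on simulated counts. These had a dispersion common to all guides and no scaling difference between fractions, so that run does not vouch for the calls here. The named guides are those of the 3 genes, those paired with genes of the lists, and the 3 most correlated guides per member. Other library guides in the promoters of the 3 genes were not analysed here, for want of a promoter sequence. Depth was 50433 to 3359719 reads per library, and 0 value columns were left out.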

Additional observations from a re-analysis of the deposited data

Results flagged for a closer look

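In 8 of 12 sets of libraries, 1 set per gene and fraction of the main screens, 1 value lay farther from the rest than Dixon's test allows. Chance sets apart about 1 in 20 groups, but such values were common here: among all guides with reads, 79.4% and 73.5% had one in the high and low activation fractions, and 60.7% and 19.6% in the high and low repression fractions. For PRY2 these were 183536 CPM in the low fraction of round 3 replicate 1 of the main activation screens, next to 1507 CPM as the second highest, and 259 CPM in the high repression fraction of round 1 replicate 1, next to 4.39 CPM. For ALP1 they were 5911 CPM in the high activation fraction of round 4 replicate 1, next to 148 CPM, 5.33 CPM in the high repression fraction of round 1 replicate 2, and 3.12 CPM in the low repression fraction of round 2 replicate 1. For GMH1 they were 3943 CPM in the high activation fraction of round 4 replicate 1, next to 102 CPM, 3.45 CPM in the high repression fraction of round 1 replicate 2, and 25.3 CPM in the low repression fraction of round 2 replicate 2. The 3 smallest of these values correspond to 5 to 17 reads.

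The high over low effect differed between activation and repression libraries by an interaction test for ALP1 (14.24, adjusted p = 0.0306, edgeR) and GMH1 (17.44, adjusted p = 0.00585, edgeR). The study chose both guides from the activation libraries, so these differences are no independent evidence. Both rest on the activation sorts of round 4 replicate 1 and round 2 replicate 1. With the high and low libraries of these sorts left out, the fit without a filter gave an adjusted p of 0.502 for ALP1 and 0.137 for GMH1 (edgeR). With them in, that fit gave ALP1 an adjusted p of 0.0191 (edgeR).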

How the results depend on the processing

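In the early screen 39 guides were called higher in the high fraction. The count was 0 with edgeR's quasi-likelihood test, the replicate block, no filter or the filter on CPM above 1 (with 8, 59, 728 and 272 guides past the fold at an unadjusted p under 0.05), 25 with library size alone and 212 with DESeq2. The 681 guides called lower became 41 with the quasi-likelihood test, 161 with DESeq2, 1096 with library size alone, 20 with a prior count of 2, and 0 with the block, no filter or the CPM filter (519, 332 and 903 past the fold at an unadjusted p under 0.05, edgeR). PRY2 kept its direction in this screen but lost its call with the quasi-likelihood test (14.44), the replicate block (13.88), no filter (14.01) and the CPM filter (14.04), with adjusted p-values of 0.129 to 0.446, and passed with DESeq2 (14.68, adjusted p = 0.00181). Leaving out 1 replicate gave 11.29 to 13.06, with no test, since 1 library against 1 leaves no residual degrees of freedom.

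In the main activation screens 810 guides were called higher. The count was 281 with DESeq2, 452 with TMM, 22 with library size alone, 13 with the replicate block, 1276 with summed replicates, 1650 without a filter, 1637 with the CPM filter and 23 with library size alone and round 3 replicate 1 out. The 39 guides called lower became 112 with TMM, 276 with library size alone, 19 with the block, 432 with summed replicates, 140 without a filter and 224 with the CPM filter. They became 121, 69 and 64 without rounds 3, 4 and 5, 43 to 69 without 1 replicate, 61 without replicate 1 of rounds 2 and 4, 104 without the high library of round 4 replicate 1 and 381 with library size alone and round 3 replicate 1 out. The PRY2 value turned positive with DESeq2 (0.79, adjusted p = 0.662) and without the low library of round 3 replicate 1 (0.74), and was no longer called with the block (-3.07), summed replicates (-4.19) or no filter (-6.11). Without 1 replicate it was -6.78 to -0.017; without round 3 it did not pass the filter. ALP1 and GMH1 were called under 22 of 24 alternatives each, the exceptions being the block (8.28 and 7.68, adjusted p = 0.0783 and 0.0715) and the loss of replicate 1 of rounds 2 and 4 (5.75 and 5.99).

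In the repression screens 720 guides were called higher, against 3 with the quasi-likelihood test, 64 with DESeq2, 105 with TMM, 14 with library size alone, 0 with the block (10 at an unadjusted p under 0.05, edgeR), 114 with summed replicates, 1125 without a filter, 29 without round 2, 5 to 574 without 1 replicate and 1637 without the high library of round 1 replicate 1. PRY2 turned negative with the block (-2.49), without round 1 (-8.80) and without that high library (-3.45), with -3.38 to 1.96 over left-out replicates. ALP1 turned negative without round 1 (-4.44), with -4.29 to 4.08 over left-out replicates, and its difference in mean log2 was -0.028 with a pseudocount of 0.5. GMH1 turned positive with the block (0.51) and without round 2 (5.55), with -7.04 to 4.77 over left-out replicates. DESeq2 gave no adjusted p for the 3 guides here.

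Activation minus repression for ALP1 was 14.21 (adjusted p = 0.0722) with the quasi-likelihood test and 13.24 (adjusted p = 0.0670) with TMM, and for GMH1 8.77 without replicate 1 of rounds 2 and 4. Beside the values above, the block changed no other call of the 3 guides within a screen; the interactions were not fitted with it. The causes of these changes were not tested. Fits that leave out single libraries or several sorts were chosen after seeing the data. The 3 genes have 1 guide each, most of their reads in 1 library, and their small counts set the limit of what these data can show.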
